A study of Glycine max with 12 samples.

Results

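Cinnamate 4-hydroxylase (C4H) genes of soybean (Glycine max) were followed in leaves that differed in age and in manganese (Mn) supply. The 4 genes were taken from a fixed list of identifiers: Glyma.02G236500.Wm82.a2.v1, Glyma.10G275600.Wm82.a2.v1, Glyma.14G205200.Wm82.a2.v1 and Glyma.20G114200.Wm82.a2.v1. Of these, 3 had a row among the 39811 genes of the deposited table, and Glyma.10G275600 was not analysed here. The identifiers are written below without the version ending. From the onset of the fifth leaf stage, plants grew in nutrient solution with Mn sulfate at a normal (5 µM) or a high (100 µM) concentration. Old leaves (labelled D2Y) and young leaves (labelled D4Y) were sequenced at each level, with 3 libraries in each of the 4 groups and 12 in all. The labels name no cultivar and no plant age in days, and they do not say whether a library came from 1 plant or from several. The p-values below therefore judge differences against the spread between these libraries, which may be technical in part. The design text mentions blocks, but the labels do not say that a replicate number marks a block. The RNA extraction notes mention nodules, while the source of each sample is given as leaf. Marker genes of leaf and nodule could not be looked up, since 0 of the 39811 identifiers matched the RefSeq gene table (assembly Glycine_max_v4.0).

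C4H is a cytochrome P450 of the CYP73A family that sits in the membrane of the endoplasmic reticulum and draws electrons from a cytochrome P450 reductase. It adds a hydroxyl group to trans-cinnamate, made from phenylalanine by phenylalanine ammonia-lyase, and yields p-coumarate. After activation by a CoA ligase, p-coumarate enters lignin and flavonoid synthesis, and in legumes such as soybean also the synthesis of isoflavonoids and the phytoalexins derived from them. Soybean carries several copies of the gene. The name C4H for the identifiers comes from the list, and the deposited table does not pair identifiers with names. The other genes of the pathway could therefore not be picked out by name.

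Levels are given as FPKM, the authors' fragment numbers scaled to gene length and to the fragment total of the library. The FPKM values could be turned back into whole fragments for all 39811 genes, with totals of 17774122 to 21070730 fragments per library. The lengths behind the values were 1956 bases for Glyma.02G236500, 1862 bases for Glyma.14G205200 and 1925 bases for Glyma.20G114200. In these libraries 1 fragment of Glyma.02G236500 was worth an FPKM of 0.0243 to 0.0288. How fragments that match more than 1 copy were counted is not given in the sources used here, so the split between copies is uncertain to that extent. In whole leaf samples a change in the share of the cells that express a gene cannot be told apart from a change in RNA per cell.

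One copy was dominant in every library. The order Glyma.02G236500, Glyma.14G205200, Glyma.20G114200, from high to low FPKM, held in 12 of 12 libraries, and the ranges of neighbours in this order did not overlap in any group. Glyma.02G236500 ran from 59.2 to 232 over the 12 libraries, Glyma.14G205200 from 7.63 to 37.4 and Glyma.20G114200 from 0.0292 to 0.599. Read as a rank among the listed genes, the group mean of Glyma.02G236500 stood 497th in old leaves at 5 µM, 469th in old leaves at 100 µM, 1381st in young leaves at 5 µM and 460th in young leaves at 100 µM. The copy thus lay among the most abundant listed genes, with 1.15 to 3.47% of them above it. Glyma.14G205200 had 11.97 to 24.7% of listed genes above it, and Glyma.20G114200 had 74.96 to 77.3%.

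Of the summed FPKM of the 3 copies, the dominant copy held 87.9 ± 1.86% in old leaves at 5 µM and 94.02 ± 0.473% in old leaves at 100 µM (SD, n = 3). In young leaves it held 85.5 ± 1.26% at 5 µM and 87.7 ± 0.2003% at 100 µM (SD, n = 3). Nearly all of the rest was Glyma.14G205200, with 11.96 ± 1.99%, 5.87 ± 0.454%, 13.99 ± 1.19% and 12.1 ± 0.140% in the same order. The dominant copy was the same in both leaf ages and at both Mn levels. The summed FPKM was 175 ± 93.3 and 167 ± 31.7 in old leaves at 5 and 100 µM, and 69.8 ± 0.401 and 171 ± 21.1 in young leaves (SD, n = 3). Young leaves at 5 µM thus held the lowest sum. As 1 listed copy is missing from these sums, the shares describe the 3 copies measured.

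**Figure D1:**
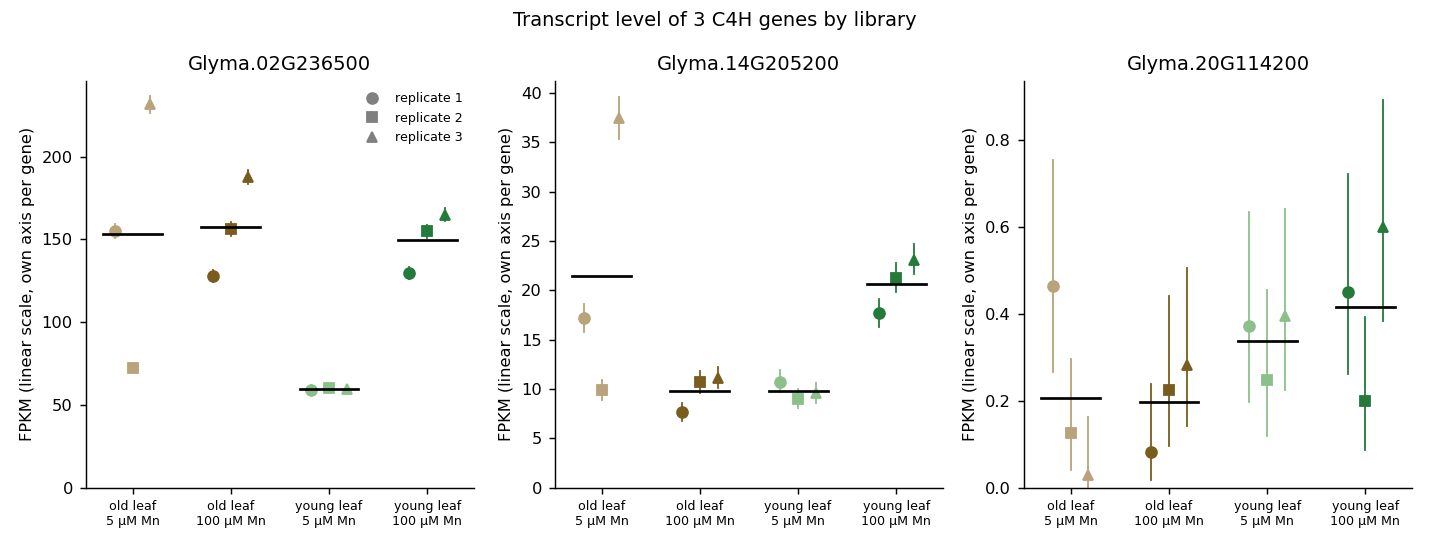
FPKM of 3 C4H genes (linear axis, own scale per gene) in the 12 libraries by leaf age and Mn level; points are libraries with marker shape by replicate number, vertical lines the 95% Poisson counting interval, black lines group means. Glyma.02G236500 and Glyma.14G205200 were spread most in old leaves at 5 µM, and their young-leaf groups did not overlap.

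In young leaves high Mn raised the dominant copy. Glyma.02G236500 had an FPKM of 59.2, 60.4 and 59.6 in the 3 young-leaf libraries at 5 µM. At 100 µM it had 129, 155 and 165. All high-Mn libraries lay above all normal-Mn libraries, and the means of 59.7 ± 0.611 and 149.8 ± 18.3 (SD, n = 3) differed 2.51-fold. The log2 change of FPKM + 1 was 1.30 (SE 0.32, limma adjusted p = 0.0119). Over the 28267 genes tested, 29.6% were called higher in this comparison, and the change of Glyma.02G236500 was larger than that of 95.4% of tested genes. The median tested gene moved by 0.27 on the log2 scale, a shift that median-of-ratios rescaling removed. Relative to that median the change was 1.04, and under the rescaling it was 0.96 (adjusted p = 0.0273). The call held with each of the 6 young-leaf libraries left out in turn (adjusted p-values of 0.0235 to 0.0422).

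The 5 µM young-leaf values of this copy were close together. Their coefficient of variation was 1.02%, against 2.07% from counting alone, with 2107, 2484 and 2457 fragments. Their SD on the log2 scale was 0.0145, and 1.14% of tested genes had a smaller one in that group. At 100 µM the coefficient of variation was 12.2%, against 1.30% from counting alone.

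Glyma.14G205200 also passed the test in young leaves, less securely. Its FPKM was 10.7, 9.02 and 9.56 in the libraries at 5 µM and 17.7, 21.3 and 23.1 at 100 µM. The groups did not overlap, and the means of 9.77 ± 0.883 and 20.7 ± 2.77 (SD, n = 3) differed 2.12-fold. The log2 change was 1.00 (SE 0.35, limma adjusted p = 0.0422), or 0.74 relative to the median gene. After median-of-ratios rescaling it was 0.68 (adjusted p = 0.107), and quantile normalization, a pseudocount of 5 and the test without a filter gave adjusted p-values of 0.0822, 0.0505 and 0.0579. The call was also lost without any 1 of the 6 young-leaf libraries, with adjusted p-values of 0.0638 to 0.111. The SE of 0.35 rests on 1 estimate of spread shared by all 4 groups, old leaves included. The SD of this copy on the log2 scale was 0.12 and 0.19 in young leaves at 5 and 100 µM, against 0.91 in old leaves at 5 µM. With the 6 young-leaf libraries fitted alone the SE was 0.12 and the adjusted p 0.00136. Of the 2 tested copies, both were called higher, beside 29.6% of all tested genes.

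In old leaves neither of the 2 copies passed the test for Mn, beside 16.1% of all tested genes that did. Glyma.02G236500 had an FPKM of 155, 72.5 and 232 in the libraries at 5 µM. It had 128, 156 and 188 at 100 µM. The high-Mn values all lay inside the range of the normal-Mn values, which spanned 3.20-fold. The means were 153 ± 79.6 and 157 ± 29.8 (SD, n = 3), with a log2 change of 0.17 (SE 0.32, 95% confidence interval -0.54 to 0.88, limma adjusted p = 0.769). The sign depended on 1 library, since without replicate 2 of the 5 µM group the log2 change was -0.29.

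Glyma.14G205200 had an FPKM of 17.2, 9.92 and 37.4 in old leaves at 5 µM. At 100 µM it had 7.63, 10.7 and 11.1. The highest values were at 5 µM, but replicate 2 of that group lay among the high-Mn libraries. The means were 21.5 ± 14.3 and 9.81 ± 1.90 (SD, n = 3), with a log2 change of -0.88 (SE 0.35, 95% confidence interval -1.64 to -0.12, limma adjusted p = 0.106). Of the tested genes, 4.28% had a more negative change, and 5.31% were called lower. The adjusted p was 0.0425 after median-of-ratios rescaling 0.0147 without replicate 2 of the 5 µM group and 0.0328 with libraries weighted by how much they varied. In the other direction, the change was -0.40 (adjusted p = 0.205) without replicate 3 of the 5 µM group, and the 6 old-leaf libraries fitted alone gave an adjusted p of 0.293.

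The 5 µM libraries of old leaves were spread widely for both copies. On the log2 scale the SD there was 0.84 for Glyma.02G236500 and 0.91 for Glyma.14G205200, larger than for 96.1% and 97.2% of tested genes, while the median gene had 0.27. Replicate 3 was the highest and replicate 2 the lowest of the group for both copies. The coefficient of variation was 52.0% and 66.3%, while counting alone gave 1.44% and 4.05% on average. The SD over the median gene was 0.14 in each of the other groups.

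Whether the Mn response differed between leaf ages was tested as an interaction. For Glyma.02G236500 the response was larger in young leaves by 1.13 on the log2 scale (SE 0.46, limma adjusted p = 0.155). For Glyma.14G205200 the difference was 1.89 (SE 0.49, limma adjusted p = 0.0512), larger than for 98.01% of tested genes. Neither passed, beside 4.67% of all tested genes that did. For Glyma.14G205200 the adjusted p lay just above the threshold and fell to 0.0429 after median-of-ratios rescaling and 0.0383 after quantile normalization. Leaving out replicate 1, 2 or 3 of old leaves at 5 µM gave 0.0492, 0.0122 and 0.0295. Leaving out any library of the other groups gave 0.0721 to 0.123, and the remaining settings gave 0.0514 to 0.067. For Glyma.02G236500 the adjusted p was 0.0133 without replicate 2 of old leaves at 5 µM. It was 0.183 to 0.272 without any other library, and no other setting passed (0.147 to 0.193).

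**Figure D2:**
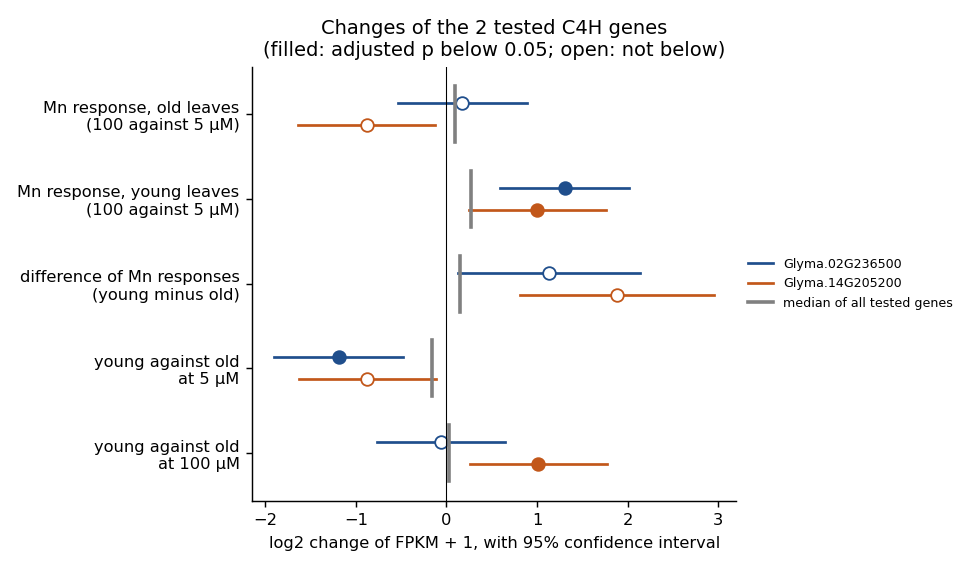
Log2 change of FPKM + 1 for the 2 tested C4H genes in 5 comparisons, with 95% confidence intervals from limma; filled points have an adjusted p below 0.05, open points do not, and grey bars mark the median of the 28267 tested genes. Glyma.02G236500 was called in young leaves for Mn and for leaf age at 5 µM, and Glyma.14G205200 in young leaves for Mn and for leaf age at 100 µM.

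Young and old leaves were also compared at each Mn level. At 5 µM Glyma.02G236500 was lower in young than in old leaves (log2 difference -1.19, SE 0.32, limma adjusted p = 0.0114), with an old-leaf mean 2.56 times the young-leaf mean. All 3 young-leaf libraries, at 59.2 to 60.4, lay below the lowest old-leaf library, at 72.5. Of all tested genes, 28.0% were called lower in young leaves at that level. The median tested gene differed by -0.16 there, and relative to it the copy differed by -1.03. At 100 µM the mean of the copy was 157 in old leaves, and young leaves stood at 149.8 (log2 difference -0.06, 95% confidence interval -0.77 to 0.65, limma adjusted p = 0.901). The 5 µM call held under each alternative tried, with adjusted p-values up to 0.0492. That highest value came from the 6 libraries at 5 µM fitted alone (SE 0.38). The SE of 0.32 is shared by all 4 groups, while at 5 µM the log2 SD was 0.84 in old and 0.0145 in young leaves. Without replicate 3 of old leaves at 5 µM the difference was -0.82 (limma adjusted p = 0.0314).

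For Glyma.14G205200 the leaf age call fell at the other Mn level. At 100 µM it was higher in young leaves, 17.7 to 23.1 against 7.63 to 11.1, with no overlap and a log2 difference of 1.01 (SE 0.35, limma adjusted p = 0.0356). The young-leaf mean was 2.11 times the old-leaf mean, and 22.8% of tested genes were called higher. The call was lost when any 1 of the 6 libraries was left out, with adjusted p-values of 0.0558 to 0.113. It held in every other setting tried, with limma adjusted p-values of 0.00211 to 0.0461. The lowest came from the 6 libraries at 100 µM fitted alone, where the SE was 0.16. At 5 µM the log2 difference was -0.87 (SE 0.35, limma adjusted p = 0.0582), with the lowest old-leaf library, at 9.92, inside the young-leaf range. Without that library, replicate 2, the adjusted p was 0.00359. With weighted libraries, a setting chosen after seeing the data, it was 0.015. With the 6 libraries at 5 µM fitted alone it was 0.139. Without replicate 3 of old leaves at 5 µM the difference was -0.39 (adjusted p = 0.177).

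The balance between the 2 expressed copies was tested within libraries, where a change shared by both copies cancels. In old leaves Glyma.14G205200 stood at 11.1, 13.7 and 16.2% of the FPKM of Glyma.02G236500 at 5 µM. At 100 µM it stood at 5.96, 6.84 and 5.93%. The groups did not overlap, although the levels of both copies did. Their means were 13.6 ± 2.55% and 6.24 ± 0.515% (SD, n = 3).

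In young leaves the same ratio was 18.1, 14.9 and 16.0% at 5 µM and 13.6, 13.7 and 14.004% at 100 µM. These groups did not overlap either, with means of 16.4 ± 1.64% and 13.8 ± 0.187% (SD, n = 3). The share of the minor copy relative to the dominant one was thus lower at high Mn in both leaf ages. The log2 ratio, taken on FPKM + 1, changed by -1.05 in old and -0.30 in young leaves, and each change gave an exact 2-sided permutation p of 0.1, below which 3 against 3 libraries cannot go. Over both leaf ages the change was -0.68 (exact 2-sided permutation p = 0.005, the smallest that 400 arrangements allow, Benjamini-Hochberg adjusted p = 0.03 over 6 ratio tests). It lay between -0.75 and -0.62 without any 1 of the 12 libraries and stayed past the threshold in each. Whether the change of the ratio differed between leaf ages was not tested.

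The same ratio also differed with leaf age. It was higher in young leaves, by 0.70 on the log2 scale over both Mn levels (exact 2-sided permutation p = 0.01, adjusted p = 0.03 over 6 tests). The difference was 1.07 at 100 µM, where the groups did not overlap, and 0.32 at 5 µM, where they did (exact permutation p = 0.1 and 0.2, n = 3). Old leaves at high Mn were therefore the group in which the dominant copy stood furthest above the other, at 16.1 ± 1.27 times its FPKM, against 7.51 ± 1.43 in old leaves at 5 µM, 6.15 ± 0.599 in young leaves at 5 µM and 7.25 ± 0.0978 in young leaves at 100 µM (SD, n = 3).

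**Figure D3:**
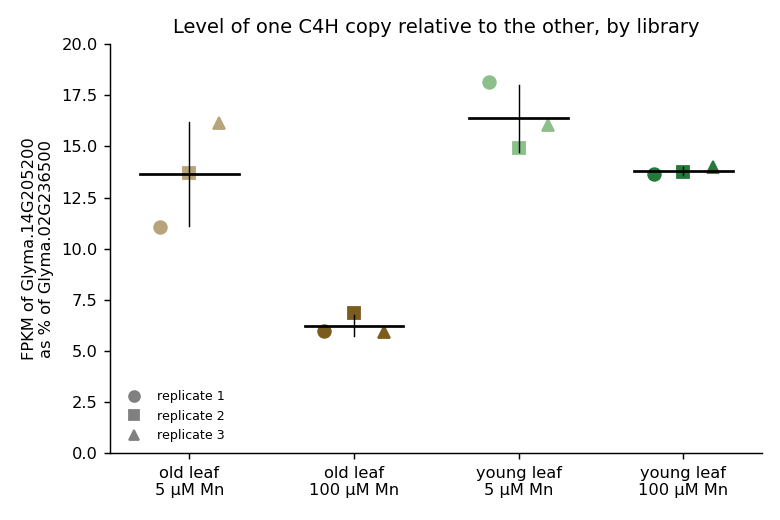
FPKM of Glyma.14G205200 as a percentage of that of Glyma.02G236500 in each of the 12 libraries, by leaf age and Mn level; horizontal lines are group means and vertical lines ± 1 SD (n = 3). The 3 libraries of old leaves at 100 µM lie between 5.93 and 6.84%, below the other 9, which start at 11.1%.

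Glyma.20G114200 was barely expressed in these leaves. It had 16, 5 and 1 fragments in old leaves at 5 µM and 3, 8 and 11 at 100 µM. In young leaves it had 13, 10 and 16 fragments at 5 µM and 17, 8 and 24 at 100 µM. Mean FPKM was 0.207 ± 0.229, 0.196 ± 0.104, 0.338 ± 0.0792 and 0.416 ± 0.202 in these groups (SD, n = 3), and the ranges of neighbouring groups overlapped. No library reached an FPKM of 1, so the gene did not pass the expression filter, which asked for 3 or more libraries with an FPKM of 1 or higher.

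Fitted without that filter over all 39811 genes, Glyma.20G114200 had log2 changes of 0.00 with Mn in old and 0.07 in young leaves (limma adjusted p = 1 and 0.72). For leaf age they were 0.16 at 5 µM and 0.24 at 100 µM (limma adjusted p = 0.384 and 0.205). On this scale a pseudocount of 1 outweighs the level of the gene, so changes in it were hardly detectable at this depth. Pooled over the 3 libraries of a group, the 95% Poisson interval of its FPKM was 0.127 to 0.308 in old leaves at 5 µM and 0.124 to 0.299 at 100 µM. It was 0.239 to 0.459 in young leaves at 5 µM and 0.307 to 0.549 at 100 µM. These intervals cover counting error only. Its ratio to Glyma.02G236500 was higher in young leaves by 0.83 on the log2 scale (exact permutation p = 0.015, adjusted p = 0.03 over 6 tests). The difference was 1.35 at 5 µM, where Glyma.02G236500 itself differed by -1.19, and 0.30 at 100 µM (exact permutation p = 0.1 and 0.3, n = 3). This call was lost without replicate 3 of old leaves at 100 µM, any replicate of young leaves at 5 µM, or replicate 1 or 3 of young leaves at 100 µM (adjusted p = 0.05 to 0.11). Against Mn that ratio changed by -0.70 (exact permutation p = 0.04, adjusted p = 0.06), and it passed without replicate 3 of old leaves at 5 µM (adjusted p = 0.01). The change was -0.17 in old and -1.23 in young leaves (exact permutation p = 0.7 and 0.1, n = 3). The log2 ratio of Glyma.20G114200 to Glyma.14G205200 changed with Mn by 0.88 in old and -0.93 in young leaves. With leaf age it changed by 1.04 at 5 µM and -0.77 at 100 µM. These changes, of opposite sign, each gave an exact permutation p of 0.1 (n = 3). Pooled they came to -0.025 for Mn and 0.13 for leaf age (exact permutation p = 0.965 and 0.835), so the pooled values do not show an unchanged ratio. As a plain FPKM ratio, without the pseudocount, the Mn groups overlapped in old leaves and the leaf age groups overlapped at 100 µM. At a pseudocount of 0.1 the leaf age changes of the ratios were 1.41 to Glyma.02G236500 and 0.70 to Glyma.14G205200, so their size depends on that choice.

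The Mn responses of the 2 expressed copies were set beside those of all tested genes. Glyma.02G236500 lay near the middle of the old-leaf responses, with 60.2% of genes below it. Glyma.14G205200 lay at a point where the old-leaf change was negative and the young-leaf change positive. A change in opposite directions was not established for it, since only the young-leaf change was called.

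**Figure D4:**
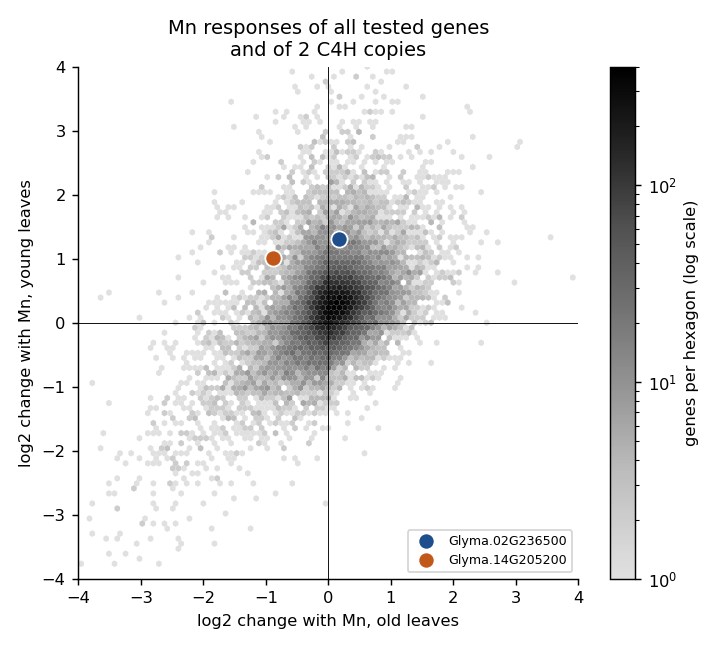
Log2 change with Mn in old leaves (horizontal) against young leaves (vertical) for the 28267 tested genes, as hexagons shaded by the number of genes on a log scale, with the 2 tested C4H copies as coloured points; 23 genes lie outside the axes. Glyma.02G236500 is at 0.17 and 1.30, and Glyma.14G205200 at -0.88 and 1.00.

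The patterns of the 2 copies over the 12 libraries were not close to each other. Pearson's r of log2(FPKM + 1) between them was 0.66 (n = 12 libraries, which fall into 4 groups). Among 15649 other genes with a mean FPKM of 5 or higher, Glyma.14G205200 ranked 4900th in likeness to Glyma.02G236500, and Glyma.02G236500 ranked 1729th in likeness to Glyma.14G205200. The genes most like Glyma.02G236500 were Glyma.08G353600 (r = 0.98, n = 12) and Glyma.20G178200 (r = 0.97, n = 12). Both were called higher with Mn in young leaves, by 0.62 and 0.57 on the log2 scale (limma adjusted p = 0.0105 and 0.0148), a smaller change than that of Glyma.02G236500.

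The genes most like Glyma.14G205200 were Glyma.10G058100 (r = 0.95, n = 12) and Glyma.02G294500 (r = 0.94, n = 12). Neither was called for Mn in young leaves, with log2 changes of 0.31 and 0.43, or in old leaves, with -0.23 and -0.26 (limma adjusted p = 0.0844, 0.0533, 0.265 and 0.291). These likenesses rest on the same 12 libraries in 4 groups and are descriptions only. The identifiers carry no names in the deposited table.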

How the data were processed

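The deposited table holds FPKM made by the authors, 1 column per sample and none of another series. The submitters' processing notes list DESeq2 1.6.3, HISAT2 2.1.0 and Bowtie2 2.2.3 without their roles. Genes, lists and tests were chosen with earlier results of these data known. Library totals, gene lengths and fragments were solved from the FPKM steps, and all 39811 genes gave fragments within 0.02 of whole numbers. The 28267 genes that reached an FPKM of 1 in 3 or more libraries were analysed as log2(FPKM + 1) in limma 3.58.1 (R 4.3.3), with 4 group means and a variance trend. Such changes understate those of low genes. For each gene the 4 groups shared 1 estimate of spread. P-values were 2-sided and Benjamini-Hochberg adjusted over the genes tested, with calls below 0.05. Ratios between copies were tested by exact permutation within leaf age or Mn level. Of the 12 tests designed, 6 were made, as 1 copy was not analysed. Exact Poisson intervals are at 95% (scipy 1.17.1). The 2 genes most like each tested copy were named by Pearson's r. Pathway lists, cell type markers, promoters and proteins could not be used without names paired to identifiers. The tests were checked on simulated data. The limma simulation gave each gene the same spread in all 4 groups, so it did not cover the unequal spread of the C4H copies. Alternatives were other pseudocounts (0.1 and 5) and filters, rescaling, the replicate number as a term, separate fits, voom on fragments, array weights and leaving out each library. Array weights were run only for Mn in old leaves and leaf age at 5 µM.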

Additional observations from a re-analysis of the deposited data

Results flagged for a closer look

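The ratio of Glyma.20G114200 to Glyma.14G205200, on log2(FPKM + 1), moved in opposite directions in the 2 leaf ages. With high Mn it was higher in all old-leaf libraries, with a change of 0.88, and lower in all young-leaf libraries, with a change of -0.93. The changes differed by -1.81, young minus old, which is also the leaf age difference at 100 µM minus that at 5 µM. The difference was not tested. Glyma.20G114200 had 1 to 24 fragments per library, and its own log2 changes, fitted without a filter, were 0.00 in old and 0.07 in young leaves. Glyma.14G205200 itself had log2 changes of -0.88 in old and 1.00 in young leaves. On this scale the pseudocount outweighs the level of Glyma.20G114200, so the ratio mostly mirrors the level of Glyma.14G205200. As a plain FPKM ratio the old-leaf groups overlapped, at 0.0781 to 2.71% at 5 µM and 1.07 to 2.55% at 100 µM. The young-leaf groups did not, at 2.74 to 4.13% and 0.938 to 2.59%.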

How the results depend on the processing

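Over 20 results, 214 of 258 alternatives were classed as the same as the main result. For tested changes this meant the same direction and the same side of the threshold. For the shares of the dominant copy, which were not tested, it meant a value within the SD of the main share. The young-leaf rise of Glyma.02G236500 with Mn ran from 1.23 to 1.41 with each library left out, and its leaf age difference at 5 µM from -1.65 to -0.82, both called throughout. Its uncalled values changed sign at 100 µM for leaf age (0.029 after quantile normalization, -0.20 to 0.075 leaving out libraries) and in old leaves for Mn (-0.29 to 0.55), and its difference of responses ran from 0.76 to 1.59.

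For Glyma.14G205200 the young-leaf Mn change lost its call at 0.79 (pseudocount 5), 1.00 (no filter, adjusted p = 0.0579), 0.68 (median-of-ratios rescaling), 0.76 (quantile normalization) and 0.92 to 1.11 (libraries left out). Its old-leaf Mn change gained one at -0.98 (rescaling) and -0.67 (array weights, chosen after seeing the data), and ran from -1.31 to -0.40 with libraries left out. Its difference of responses gained one at 1.66 (rescaling) and 1.69 (quantile normalization), and ran from 1.40 to 2.31. Its leaf age difference gained one at 5 µM at -0.69 (array weights; -1.30 to -0.39 leaving out libraries) and ran from 0.86 to 1.12 at 100 µM. With 1 library fewer the fit has fewer degrees of freedom; other causes were not tested.

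Ratios of Glyma.20G114200 to the other copies rest on its 1 to 24 fragments per library. With libraries left out, changes of its log2 ratio to Glyma.02G236500 ran from -0.94 to -0.49 (Mn) and 0.59 to 1.03 (leaf age). At a pseudocount of 0.1 they were -0.59 (exact permutation, adjusted p = 0.366) and 1.41. Changes of its ratio to Glyma.14G205200 ran from -0.32 to 0.17 and -0.16 to 0.32, with 0.091 and 0.70 at a pseudocount of 0.1. Counted as fragments, the share of the dominant copy in young leaves at 100 µM was 88.2%.

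Little pairing by replicate number was seen: deviations of same-numbered libraries correlated at -0.47 to 0.26, and 3 of 12 libraries correlated best with their own number. These correlations cannot show that no blocks were used, and the labels do not say whether a number marks a block. With the replicate block the young-leaf Mn change of 1.30 of Glyma.02G236500 had an adjusted p of 0.014 and that of 1.00 of Glyma.14G205200 one of 0.0411, and no call of either copy changed. Over all genes the block gave 8536 calls in place of 9957 for Mn in young leaves and 766 in place of 1320 for the difference of responses.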
